A study of Mus musculus with 16 samples.

Results

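The genes described here are 6 ligands of the epidermal growth factor (EGF) receptor and 2 of its receptors. The ligand genes are Areg (amphiregulin), Ereg (epiregulin), Epgn (epigen), Hbegf (heparin-binding EGF-like growth factor), Tgfa (transforming growth factor alpha) and Btc (betacellulin). The receptor genes are Egfr (the EGF receptor) and Erbb2, a second receptor of the same family. They were chosen by name, through the Ensembl identifiers of these mouse symbols, and all 8 were found among the 39328 genes of the deposited table.

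RNA of the colon was sequenced from adult wild-type mice of the outbred ICR stock that had been born through the birth canal (VD) or by cesarean section (CS). Mice drank normal water, or for 8 days water with 3% dextran sulfate sodium (DSS), a polymer that damages the colon lining. The 4 groups were CON_VD (vaginal birth, water), CON_CS (cesarean birth, water), DSS_VD (vaginal birth, DSS) and DSS_CS (cesarean birth, DSS), with 4 libraries each. The series title asks whether cesarean birth changes the susceptibility of offspring to colitis. The labels do not state the sex or exact age of the mice, nor that each library is a separate animal. All p-values therefore describe the spread between libraries, which may be technical.

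As background, EGF family ligands are made as precursors anchored in the cell membrane, and metalloproteases such as ADAM17 cut them free. Released ligand pairs EGF receptor molecules with each other or with ERBB2, which binds no known ligand itself, and the paired receptors signal through RAS and the kinase ERK. In the gut this signalling is known for supporting growth, survival and repair of the epithelium, and ERK in turn induces genes that damp the receptor.

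Values are FPKM, fragment counts scaled by gene length and by library size. Depth in reads is unknown, and FPKM sums ran from 280135 to 343423 per library. Some libraries stood apart. DSS_CS replicate 1 had a pan-epithelial score, the mean log2(FPKM + 1) of 10 epithelial genes, of 7.45, against 5.85 to 6.65 in the other DSS_CS libraries and 7.47 to 8.51 in DSS_VD. All 10 of these markers were detected, and the scores in the water groups ran from 8.22 to 8.41. The prostate gene Pbsn stood at 185 FPKM in CON_CS replicate 1, 128 in DSS_CS replicate 3 and 1355 in DSS_CS replicate 4, and under 1 elsewhere. In bulk RNA, fewer cells of a type and less RNA per cell cannot be told apart.

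The ligand transcripts changed to different extents under DSS, and only Tgfa in CS mice had a negative estimate. By the test across all genes Ereg and Areg rose in both delivery groups, Hbegf rose in VD mice, Btc rose and Tgfa fell in CS mice. The Areg call in VD mice was at the threshold (limma adjusted p = 0.0499). Epgn was higher in every DSS library than in every water library. The difference between the responses of the delivery groups was not called for Areg, Hbegf or Btc. Ereg rose from a mean of 2.73 ± 0.777 FPKM (SD, n = 4) in CON_VD to 61.3 ± 27.2 in DSS_VD, and from 1.90 ± 1.08 in CON_CS to 168 ± 81.5 in DSS_CS. Egfr rose 2.25-fold in VD mice and 2.49-fold in CS mice by the ratio of mean FPKM, while Erbb2 fell in both. Between the delivery groups on DSS, Areg, Hbegf and Tgfa were lower and Epgn was higher in CS mice by the test across all genes. All 4 calls were lost when genes under the 1 FPKM filter described below were tested too, and when replicate number entered the fit. Epgn met that filter in only 1 DSS_VD library. On water 0 of 7 tested members passed the test, against 0.407% of all tested genes.

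**Figure D1:**
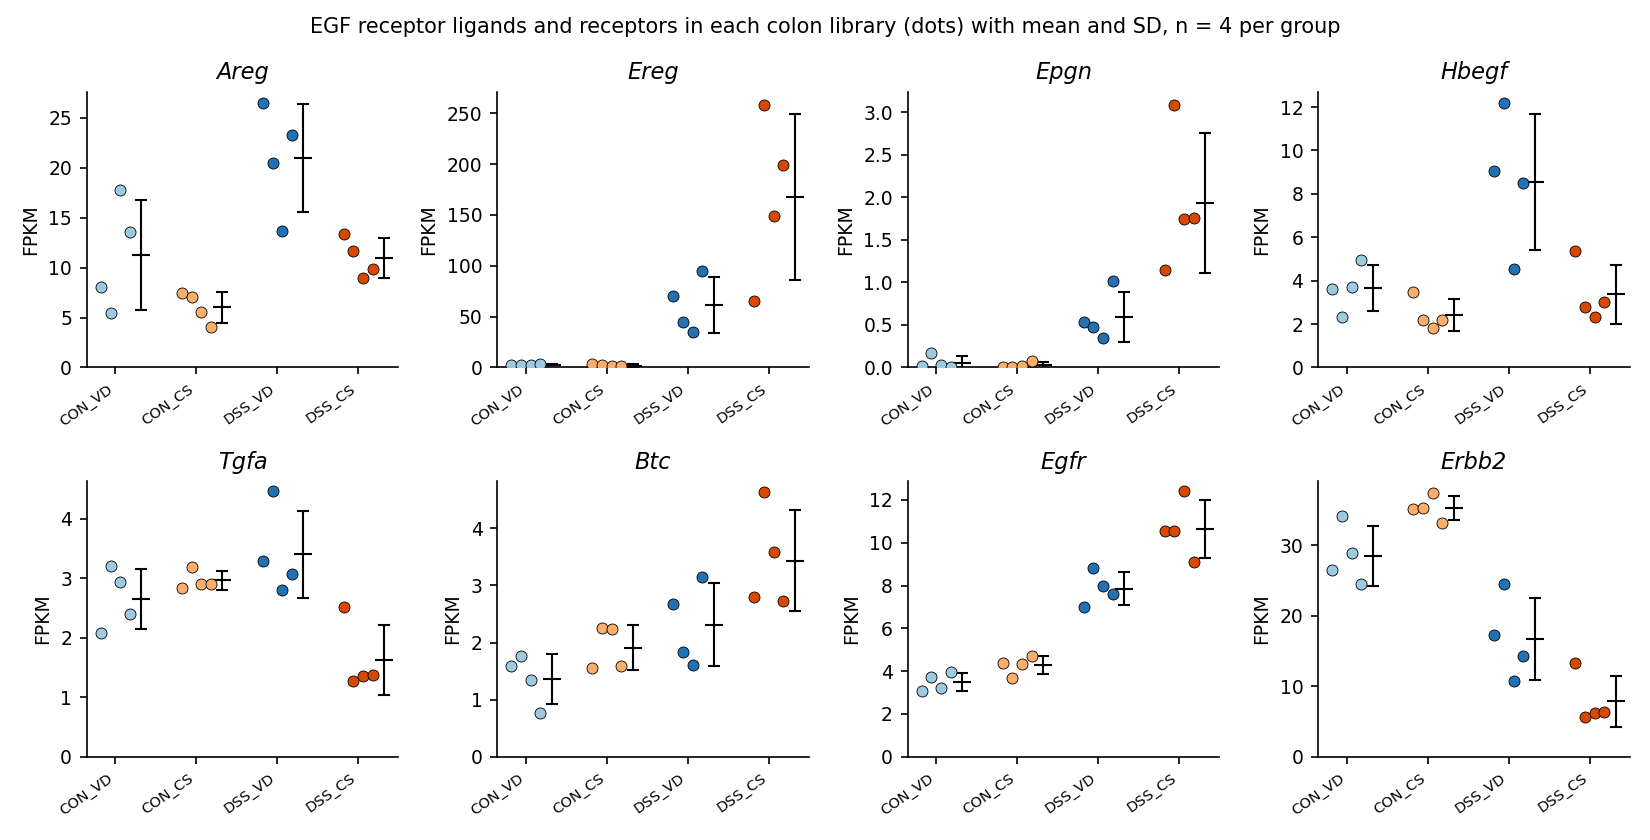
FPKM (y axis, each panel with its own scale from 0) of the 8 genes in the 4 groups (x axis). Dots are libraries, and the bar beside them gives the mean and SD of 4 libraries. Ereg lies between 34.7 and 258 in all DSS libraries and below 4 in all water libraries, while Erbb2 falls from 24.4 to 37.4 on water to 5.62 to 24.6 on DSS.

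A member was called when its adjusted p, from limma on log2(FPKM + 1) with Benjamini-Hochberg adjustment over all tested genes, was under 0.05. DSS against water in VD mice called 4 members higher and 1 lower of 7 tested, where 40.9% of 13933 tested genes were called, 24.0% higher and 17.0% lower. In CS mice DSS called 5 higher and 2 lower of 8 tested, where 60.3% of 14372 genes were called, 34.4% higher and 25.9% lower. With median-of-ratios scaling the balance of all called genes turned, to 2949 higher and 3028 lower in VD mice and 4162 higher and 4606 lower in CS mice. CS against VD under DSS called 1 higher and 3 lower of 8, against 13.4% of 14313 genes, 7.89% higher and 5.54% lower. CS against VD under water called 0 of 7, against 0.407% of 13275 genes. The DSS response differed between the delivery groups for 4 of 8 members, 2 in each direction, against 13.2% of 15233 genes, 6.68% higher and 6.55% lower. Testing required 1 FPKM or more in at least 4 libraries of the fit. Epgn passed this filter in CS mice only through the DSS libraries. In CS against VD under DSS and in the interaction, only the DSS_CS libraries and 1 DSS_VD library reached it. These counts are therefore descriptions only. Each group enters 2 pairwise comparisons, so a comparison with DSS and a comparison of deliveries share libraries.

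The FPKM ranges of the groups were compared as well. With DSS in VD mice 2 of the 7 tested members lay wholly higher and 0 lower, against 38.6% of tested genes, 22.2% higher and 16.4% lower. With DSS in CS mice 5 of 8 lay wholly higher and 2 lower, against 57.0%, 32.9% higher and 24.1% lower. Between the delivery groups on DSS 2 of 8, Epgn and Egfr, lay wholly higher in CS mice and 2, Areg and Tgfa, wholly lower, against 22.5%, 15.3% higher and 7.18% lower. On water 0 of 7 lay apart, against 10.7%, 6.31% higher and 4.41% lower.

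**Figure D2:**
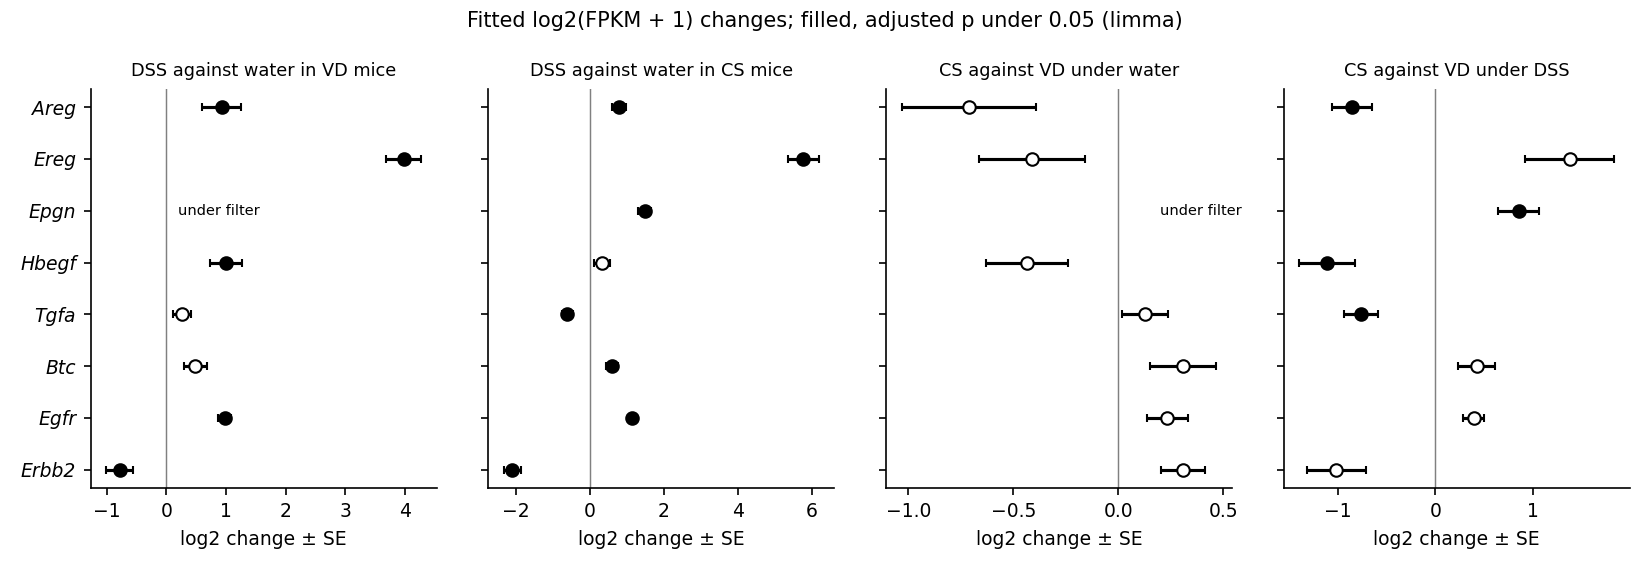
Change of each gene (rows) in 4 comparisons (panels, each with its own x axis), as the fitted difference in log2(FPKM + 1) with its standard error. Filled points have an adjusted p under 0.05. Ereg has the largest rise of the 8 genes with DSS in both delivery groups (3.98 and 5.77), and Erbb2 the largest fall (-0.78 and -2.11).

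Areg encodes amphiregulin, a low-affinity ligand of the EGF receptor that epithelial, stromal and immune cells can make. Its FPKM in the CON_VD libraries, in order of replicate number, was 8.10, 5.48, 17.8 and 13.6, and in CON_CS 7.41, 7.08, 5.57 and 4.03. In DSS_VD it was 26.5, 20.5, 13.7 and 23.3, and in DSS_CS 13.4, 11.6, 8.94 and 9.82. All 4 DSS_CS libraries lay below all 4 DSS_VD libraries, though the highest of the former and the lowest of the latter were close, and above all 4 CON_CS libraries, whereas CON_VD overlapped every other group. Areg was lower in CS than in VD mice on DSS by 0.86 ± 0.20 (log2, SE; change -0.86, limma adjusted p = 0.0365), with a mean of 10.9 ± 1.98 FPKM against 20.98 ± 5.44 (SD, n = 4 each). On water the difference had the same sign and was not called (-0.71 ± 0.32, limma adjusted p = 0.263). Areg rose with DSS by 0.78 ± 0.18 in CS mice (limma adjusted p = 0.00530) and by 0.93 ± 0.33 in VD mice (limma adjusted p = 0.0499). The VD call was at the threshold: it was lost in 11 of 14 alternatives, among them without CON_VD replicate 1, 2 or 4 (0.82, 0.66 and 1.05) and without DSS_VD replicate 1, 2 or 4 (0.81, 0.92 and 0.87). The difference between the rises of the delivery groups was not called (interaction -0.15 ± 0.41, limma adjusted p = 0.844).

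Areg is the third of 4 ligand genes that lie side by side on chromosome 5 (GENCODE M21, GRCm38). In map order these are Epgn (91027464 to 91035215, plus strand), Ereg (91074622 to 91093646, plus strand), Areg (91139599 to 91148432, plus strand) and Btc (91357261 to 91402994, minus strand). The gaps are 39.4 kb, 46.0 kb and 209 kb, with 0 coding genes inside them. The bases just upstream of the start are shown for the members of this cluster that RefSeq's promoter table holds (GRCm38.p6), because Areg and Epgn lie in the same cluster, with Ereg between them, and differed in opposite directions between the delivery groups on DSS. Each sequence is read 5′ to 3′ on the gene's own strand and ends before the start in RefSeq or in GENCODE, whichever lies further upstream. The GENCODE start of Epgn lies upstream of the RefSeq start, so its window was shortened to 197 bases. Capitals mark a match to the cyclic AMP response element TGACGTCA or to the TATA box TATAAA, searched on both strands.
Areg, chr5:91139349-91139598, plus strand: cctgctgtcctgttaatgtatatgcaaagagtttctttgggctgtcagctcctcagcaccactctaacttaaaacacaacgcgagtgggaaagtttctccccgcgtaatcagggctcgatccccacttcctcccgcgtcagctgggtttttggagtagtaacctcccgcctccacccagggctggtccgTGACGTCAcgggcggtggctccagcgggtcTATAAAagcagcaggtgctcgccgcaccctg
Epgn, chr5:91027267-91027463, plus strand: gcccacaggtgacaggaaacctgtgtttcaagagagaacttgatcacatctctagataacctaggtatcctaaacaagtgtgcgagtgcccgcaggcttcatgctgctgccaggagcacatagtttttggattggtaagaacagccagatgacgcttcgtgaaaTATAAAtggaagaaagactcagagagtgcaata
Btc, chr5:91402995-91403244, minus strand: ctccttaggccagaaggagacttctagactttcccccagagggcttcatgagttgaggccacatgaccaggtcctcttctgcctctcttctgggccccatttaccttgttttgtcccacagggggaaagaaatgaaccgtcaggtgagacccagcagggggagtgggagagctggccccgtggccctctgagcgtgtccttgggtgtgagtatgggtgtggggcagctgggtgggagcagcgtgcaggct

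The Areg window held a TGACGTCA 61 to 54 bases before the start and a TATAAA 31 to 26 bases before it. The Epgn window held a TATAAA whose 5′ end lay 33 bases before the GENCODE start and 86 before the RefSeq start. The Btc window held neither motif, nor did the windows of Tgfa, Egfr and Erbb2, and the AP-1 motif TGANTCA was in none of the 6 windows. Among 32851 RefSeq windows of 250 bases, 1.55% held TGACGTCA, 6.75% TGANTCA and 12.4% TATAAA. These matches are letters in a window and not shown to be bound. The promoter of Ereg was not in the table, and that of Hbegf was not examined.

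Ereg encodes epiregulin, a ligand of the EGF receptor and of ERBB4 that is known to be induced in wounded and inflamed tissue. Its FPKM in CON_VD was 2.06, 2.36, 2.68 and 3.83, and in CON_CS 3.33, 2.13, 1.09 and 1.06. In DSS_VD it was 70.2, 45.0, 34.7 and 95.4, and in DSS_CS 65.5, 258, 149 and 199. Every DSS library lay above every water library, and 3 of the 4 DSS_CS libraries lay above all of DSS_VD, with DSS_CS replicate 1 inside the DSS_VD range. The rise with DSS was 3.98 ± 0.30 in VD mice (log2, SE; limma adjusted p = 3.31e-05) and 5.77 ± 0.42 in CS mice (limma adjusted p = 5.58e-06), and it was called in every alternative in either delivery group. In terms of rank, Ereg moved from the 66.9th percentile of expressed genes in CON_VD to the 97.6th in DSS_VD, and reached the 99.3rd in DSS_CS.

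The rise of Ereg was larger in CS mice by 1.79 ± 0.55 (limma interaction, adjusted p = 0.0453), a call that was lost in 17 of 22 alternatives. These included a pseudocount of 0.1, no filter, the fit without the Pbsn libraries, and the fits without any 1 library except CON_CS replicate 1, DSS_VD replicate 4 and DSS_CS replicate 1, with differences of 1.53 to 2.01. The direct difference on DSS was 1.38 ± 0.45 and was not called (limma adjusted p = 0.0742). Without DSS_CS replicate 1 it was 1.77 and called (limma adjusted p = 0.0224), and without the Pbsn libraries 1.18 and not called (limma adjusted p = 0.301). On water the delivery difference of Ereg was not called (-0.41 ± 0.25, limma adjusted p = 0.393). An antisense gene, Gm19610, overlaps Ereg, and its mean was 1.16 to 2.65 FPKM in the 4 groups. The strand setting of the libraries was not given in the sources used here. Reads of the overlap therefore cannot be told apart.

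**Figure D3:**
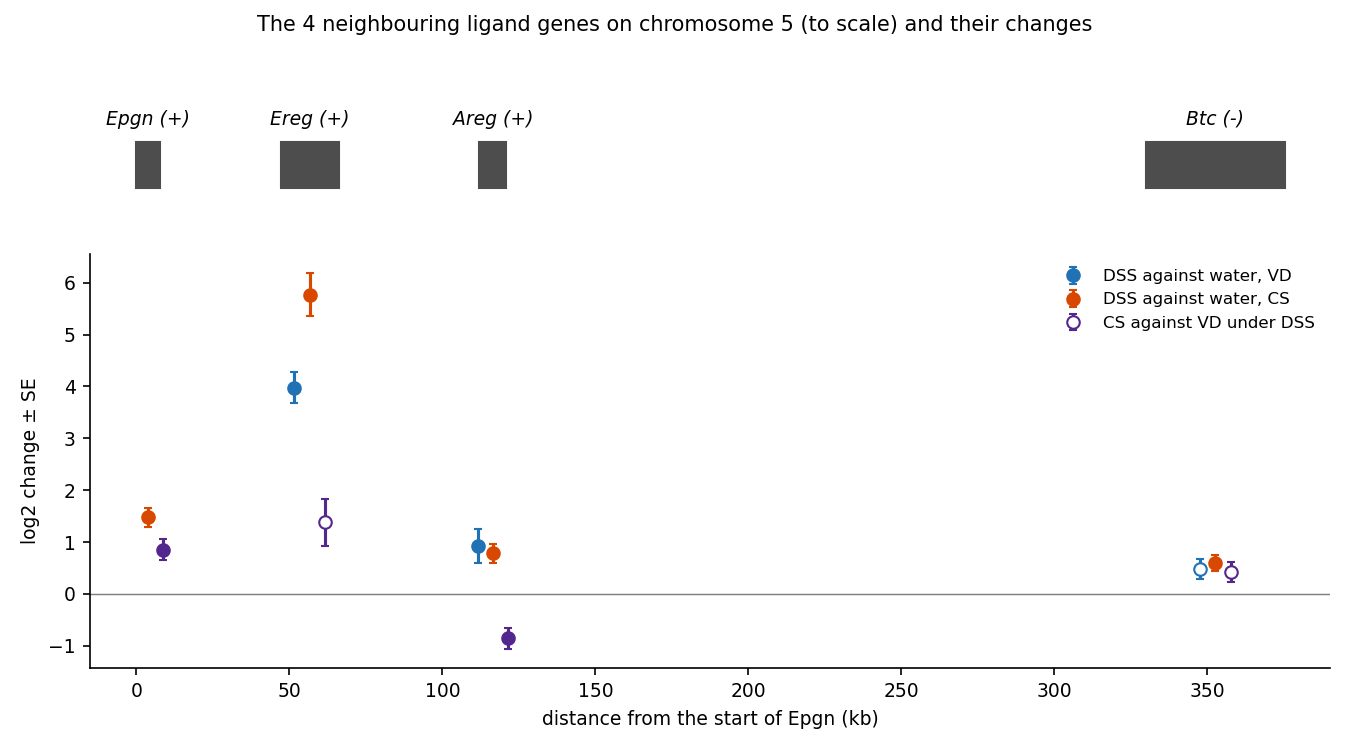
The 4 ligand genes on chromosome 5 drawn to scale (upper panel, x axis in kb from the start of Epgn, strand in brackets) with their log2 changes and standard errors (lower panel). Filled points have an adjusted p under 0.05. Under DSS, Epgn is higher (0.85) and Areg lower (-0.86) in CS than in VD mice, and Epgn against water in VD mice is missing because it was under the filter.

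Epgn encodes epigen, a low-affinity ligand of the EGF receptor and had the lowest mean of the 6 in every group but DSS_CS. In CON_VD it was 0.0214, 0.172, 0.0248 and 0 FPKM, and in CON_CS it was listed at 0 in replicates 1 and 2 and stood at 0.0187 and 0.0796 in the others. In DSS_VD it was 0.534, 0.472, 0.351 and 1.02, and in DSS_CS 1.14, 3.08, 1.74 and 1.76. The DSS libraries all lay above the water libraries, and the DSS_CS libraries all lay above DSS_VD. In VD mice Epgn was under the filter, and a two-sided exact permutation test of its FPKM gave p = 0.0286, the smallest that 4 against 4 libraries allow. In CS mice the difference was 1.48 ± 0.18. Because the filter there was passed only through the DSS libraries, the test given is the limma fit with no filter (adjusted p = 5.64e-04). It was higher in CS than in VD mice on DSS by 0.85 ± 0.21 (limma adjusted p = 0.0377, and 0.0988 with no filter), and the response to DSS was larger by 0.89 ± 0.23 (limma interaction, adjusted p = 0.0257). The interaction was not called with a pseudocount of 0.1 (limma adjusted p = 0.0603) or with no filter (limma adjusted p = 0.0534). In the interaction fit only the DSS_CS libraries and DSS_VD replicate 4 reached the filter level, so its call there is a description. On water the exact permutation p was 0.543.

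Hbegf encodes HB-EGF, a ligand of the EGF receptor and of ERBB4 that acts mostly near the cell that makes it. It lies on chromosome 18 (36504927 to 36515805, minus strand). Its FPKM was 3.63, 2.35, 3.69 and 4.95 in CON_VD, 3.49, 2.21, 1.82 and 2.20 in CON_CS, 9.04, 12.2, 4.52 and 8.49 in DSS_VD and 5.37, 2.80, 2.32 and 3.01 in DSS_CS. DSS_VD was the high group, although its replicate 3 lay inside the CON_VD range and below DSS_CS replicate 1, so the DSS groups overlapped. Hbegf rose with DSS in VD mice by 1.0 ± 0.27 (limma adjusted p = 0.0148) and was not called in CS mice (0.33 ± 0.22, limma adjusted p = 0.224). The difference between the responses was not called (interaction -0.67 ± 0.37, limma adjusted p = 0.234). On DSS it was lower in CS mice (-1.11 ± 0.29, limma adjusted p = 0.0418).

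Tgfa encodes TGF-alpha, a ligand that binds the EGF receptor with high affinity and is made by gut epithelium. The gene spans 86195223 to 86275719 on the plus strand of chromosome 6, and its antisense neighbour Gm43917 stayed at a mean of 0.0605 FPKM or less. Tgfa was 2.08, 3.20, 2.94 and 2.39 FPKM in CON_VD, 2.84, 3.19, 2.91 and 2.91 in CON_CS, 3.30, 4.46, 2.80 and 3.07 in DSS_VD, and 2.51, 1.26, 1.35 and 1.37 in DSS_CS. DSS_CS was below every other group except for its replicate 1, which lay inside the CON_VD range. Tgfa fell with DSS in CS mice (-0.62 ± 0.14, limma adjusted p = 0.00481) and was not called in VD mice (0.27 ± 0.15, limma adjusted p = 0.183). The responses differed by -0.88 ± 0.21 (limma interaction, adjusted p = 0.0178). On DSS it was lower in CS mice by 0.76 ± 0.17 (change -0.76, limma adjusted p = 0.0345). Without the Pbsn libraries the fall in CS mice was -0.50 (limma adjusted p = 0.0914) and the interaction -0.77 (limma adjusted p = 0.0953), and neither was called.

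Btc encodes betacellulin, a ligand of the EGF receptor and of ERBB4. Its FPKM was 1.59, 1.76, 1.35 and 0.761 in CON_VD, 1.55, 2.25, 2.24 and 1.59 in CON_CS, 2.67, 1.84, 1.60 and 3.16 in DSS_VD, and 2.80, 4.63, 3.59 and 2.73 in DSS_CS. The DSS_CS libraries lay above all CON_CS libraries, and every other pair of neighbouring groups overlapped. Btc rose in CS mice (0.60 ± 0.16, limma adjusted p = 0.00910), a call lost without the Pbsn libraries (0.62, limma adjusted p = 0.0607). In VD mice (0.48 ± 0.19, limma adjusted p = 0.0742) and between deliveries on DSS (0.43 ± 0.19, limma adjusted p = 0.160) it was not called.

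The make-up of the ligand transcripts changed with DSS. The summed FPKM of the 6 ligands was 21.7 ± 6.30 in CON_VD, 15.3 ± 3.05 in CON_CS, 97.2 ± 33.3 in DSS_VD and 189 ± 80.7 in DSS_CS (SD, n = 4 each). Areg held the largest mean share on water, with 49.5% in CON_VD and 39.1% in CON_CS. On DSS, Ereg held 61.8% in DSS_VD and 86.1% in DSS_CS, while Areg held 22.2% and 7.19%. The share of Ereg was 72.2% in DSS_CS replicate 1 and reached 91.7% in the highest DSS_CS library. Tgfa, with a mean share of 13.1% in CON_VD and 15.2% to 24.5% per library in CON_CS, was at 3.84% in DSS_VD and 1.16% in DSS_CS. The ratio of Ereg to Areg was 0.279 and 0.302 in the water groups, 2.87 ± 0.841 in DSS_VD and 16 ± 7.75 in DSS_CS. It did not overlap between the DSS groups (2.20 to 4.10 and 4.89 to 22.2), as held for the ranges of 22.5% of single tested genes. Whether ratios of other genes lie apart as often was not computed. These shares are of transcript per gene length and say nothing of released protein.

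**Figure D4:**
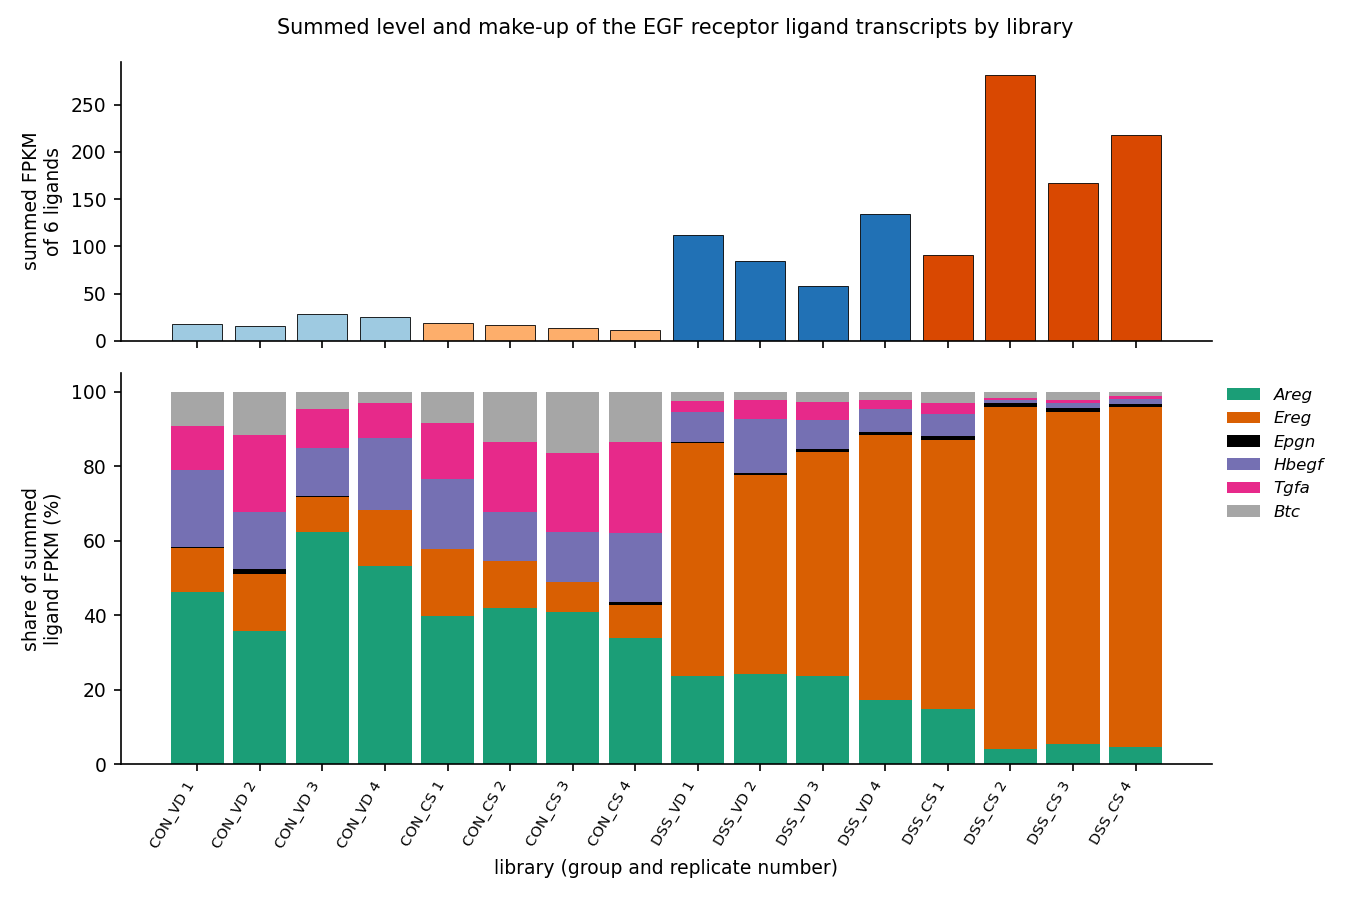
Summed FPKM of the 6 ligand genes in each library (upper panel) and the share of each gene in that sum (lower panel, percent). Libraries are ordered by group and replicate number. Ereg makes up 53.3% to 91.7% of the sum in DSS libraries, and DSS_CS replicate 1 lies nearer DSS_VD than the other DSS_CS libraries do.

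Egfr, the receptor that all 6 ligands bind, lies on chromosome 11 (16752203 to 16918158, plus strand), and its antisense neighbour Egfros stayed at a mean under 0.05 FPKM. Egfr was 3.07, 3.74, 3.19 and 3.96 FPKM in CON_VD and 4.39, 3.69, 4.32 and 4.71 in CON_CS. On DSS it was 7.01, 8.82, 7.99 and 7.60 in DSS_VD and 10.6, 10.6, 12.4 and 9.08 in DSS_CS. The groups were ordered CON_VD, CON_CS, DSS_VD, DSS_CS, and only the water groups overlapped. The rise with DSS was 0.98 ± 0.11 in VD mice (limma adjusted p = 1.78e-04) and 1.14 ± 0.11 in CS mice (limma adjusted p = 2.32e-05), and both were called in every alternative. On DSS the difference of 0.39 ± 0.11 between deliveries was just above the threshold (limma adjusted p = 0.0514) although the ranges did not overlap, which also held for 22.5% of tested genes. In 1 fit on all 4 groups it was called (limma adjusted p = 0.0114).

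Erbb2 encodes the partner receptor of the family. It lies on the same chromosome (98412470 to 98437716, plus strand) and overlaps the antisense genes Gm25048 and Mien1. It was the most abundant of the 8 genes on water. Its FPKM was 26.4, 34.2, 28.9 and 24.4 in CON_VD, 35.1, 35.3, 37.4 and 33.2 in CON_CS, 17.2, 24.6, 10.8 and 14.2 in DSS_VD, and 13.3, 5.62, 6.18 and 6.38 in DSS_CS. All DSS_CS libraries lay below all water libraries, and DSS_CS replicate 1 lay inside the DSS_VD range. Erbb2 fell by 0.78 ± 0.22 in VD mice (change -0.78, limma adjusted p = 0.0199) and by 2.11 ± 0.22 in CS mice (change -2.11, limma adjusted p = 5.16e-05). The VD call was lost without CON_VD replicate 2 (-0.69, limma adjusted p = 0.0594), without DSS_VD replicate 4 (-0.73, limma adjusted p = 0.0542) and with no filter. The fall was larger in CS mice by 1.32 ± 0.34 (difference -1.32, limma interaction, adjusted p = 0.0233), which was not called without the Pbsn libraries (-1.12, limma adjusted p = 0.124). On DSS the delivery difference was -1.01 ± 0.30 (limma adjusted p = 0.0561), and without DSS_CS replicate 1 it was -1.27 and called (limma adjusted p = 0.0195). Mien1, which shares sequence with Erbb2 on the other strand, had means of 87.7, 76.2, 68.7 and 44.4 FPKM in CON_VD, CON_CS, DSS_VD and DSS_CS, and reads of the overlap cannot be told apart.

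The ratio of Egfr to Erbb2 FPKM was 0.125 ± 0.0252 in CON_VD and 0.122 ± 0.0158 in CON_CS, 0.510 ± 0.171 in DSS_VD and 1.53 ± 0.549 in DSS_CS. The lowest DSS_CS value, 0.795 in replicate 1, was above the highest DSS_VD value of 0.742. Neither gene was called between deliveries on DSS, and ranges of single genes did not overlap there for 22.5% of tested genes. How often ratios of other genes lie apart was not computed. Epithelial markers moved with these results. On DSS, 7 of the 10 pan-epithelial genes were lower in CS than in VD mice and 0 were higher, and Epcam was 176 ± 95.5 against 467 ± 174 FPKM. With DSS, 3 of the 10 fell in VD mice and 10 in CS mice. Over all tested genes 5.54% were lower in CS mice on DSS, and 17.0% and 25.9% fell with DSS in VD and CS mice. Set against the pan-epithelial score of the same library, the mean log2 difference of Erbb2 was -3.44 in CON_VD, -3.18 in CON_CS, -3.79 in DSS_VD and -3.51 in DSS_CS. Against the same score Areg stood at -4.82, -5.57, -3.46 and -3.01, Hbegf at -6.12, -6.60, -4.69 and -4.50, and Tgfa at -6.45, -6.37, -5.76 and -5.21. By this measure the means of Areg, Hbegf and Tgfa were higher in DSS_CS than in DSS_VD, the reverse of their FPKM. The mean of Erbb2 was higher too, as were those of Ereg, Epgn, Btc and Egfr. The DSS groups overlapped for Areg (-4.08 to -3.03 in DSS_VD, -3.60 to -2.19 in DSS_CS), Hbegf, Tgfa, Erbb2 and Ereg. They did not overlap for Epgn, Btc and Egfr. How often other genes lie apart on this measure was not computed, so this is a description only. The mean score was 7.88 in DSS_VD and 6.58 in DSS_CS, and a lower score by itself raises this difference. The part of epithelial content in the results was not tested.

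Markers of other cells moved as well. Over all tested genes 24.0% rose and 17.0% fell with DSS in VD mice, and 34.4% rose and 25.9% fell in CS mice. Between deliveries on DSS 7.89% were higher and 5.54% lower in CS mice, and 6.68% were called higher in the interaction. Of 10 fibroblast genes, all 10 rose with DSS in both delivery groups and 6 were higher in CS than in VD mice on DSS, with a summed FPKM of 170 to 225 on water, 408 to 883 in DSS_VD and 1132 to 1506 in DSS_CS. Of 10 monocyte and macrophage genes, all 10 rose with DSS in both delivery groups, and 1 was higher in CS mice on DSS. Among them Ccr2 was tested in VD mice only through the DSS libraries. Of 8 neutrophil genes, 7 were tested and 7 rose in VD mice, 6 of them tested only through the DSS libraries. On DSS 5 were higher and 1 was lower in CS mice. Of 5 erythrocyte genes, 4 of 4 tested rose in VD mice and 5 of 5 in CS mice, where Alas2 was tested only through the DSS libraries. On DSS 3 were higher in CS mice, and 5 of 5 were called higher in the interaction. The summed FPKM of the erythrocyte genes was 28.4 to 332 on water, 241 to 975 in DSS_VD and 903 to 9731 in DSS_CS. Their median difference was 2.68 (log2) between deliveries on DSS. Of 8 smooth muscle genes, 7 fell with DSS in VD mice and 2 in CS mice, and all 6 endothelial genes rose in both. The endothelial gene Vwf was tested in both delivery groups only through the DSS libraries. Of 15 genes of squamous epithelium, which lines the anal canal and can make EGF ligands, 4 were tested in CS against VD on DSS and 0 were called by limma, 2 of them with an unadjusted p under 0.05. With DSS 2 of 2 tested squamous genes rose in VD mice and 2 of 3 in CS mice. On water 1 of 2 was higher in CS mice, against 0.181% of all tested genes. Krt14 was tested in VD mice only through the DSS libraries, and on water only through CON_CS. The squamous genes Ivl and Krt4 were at a mean of 0 and at most 0.0821 FPKM, and Krt5 at 0.0802 to 0.697. The summed FPKM of all 15 squamous genes was 5.30 to 10.2 on water, 25.8 to 66.2 in DSS_VD and 14.6 to 48.1 in DSS_CS. The part of these cells in the ligand results was not tested.

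The delivery differences on DSS depended on which libraries entered. The calls of Areg, Hbegf and Tgfa were each lost in 9 of 15 alternatives and that of Epgn in 8 of 14. Those of Areg, Hbegf and Tgfa were lost without DSS_VD replicate 1, 2 or 4, or DSS_CS replicate 2, 3 or 4, and that of Epgn without DSS_VD replicate 1, 2 or 3, or DSS_CS replicate 2, 3 or 4. Over all 15 alternatives the direction held, with differences of -1.04 to -0.67 for Areg and adjusted p values of 0.0294 to 0.195. Without DSS_CS replicate 1, 6 members were called, with Areg at -0.95, Hbegf at -1.30, Tgfa at -0.91, Epgn at 0.99, Ereg at 1.77 and Erbb2 at -1.27. Without the Pbsn libraries, which left 2 DSS_CS libraries, replicates 1 and 2, 0 of 7 were called and 6 genes were called in all. Of these libraries replicate 1 was the one that stood apart from its group, with a pan-epithelial score of 7.45 against 5.85 in replicate 2. Egfr stood at 0.39 both without DSS_CS replicate 1 and without the Pbsn libraries.

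Between the delivery groups on water, no tested member passed the adjusted threshold. At an unadjusted p under 0.05 by limma there were 2, Egfr (0.23 ± 0.10, limma adjusted p = 0.238) and Erbb2 (0.31 ± 0.11, limma adjusted p = 0.184), both higher in CS mice on average. Hbegf (-0.43 ± 0.19, limma adjusted p = 0.262), Btc (0.31 ± 0.16, limma adjusted p = 0.320) and Tgfa (0.13 ± 0.11, limma adjusted p = 0.545) did not pass. All 8 genes had overlapping ranges, whereas ranges did not overlap for 10.7% of tested genes.

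The genes whose profile over the 16 libraries was nearest to each member were found by the root mean square difference of centred log2(FPKM + 1) among 13139 genes, with the members themselves left out, as a description. Among these non-members Areg was nearest to Dusp6, an ERK phosphatase that ERK signalling induces (0.436), then to Atf3 and Pard6b. Ereg was nearest to Mmp13, a collagenase (0.510), then to Cemip and the chemokine gene Ccl2. Epgn was nearest to Pdyn (0.150), Pfn2 and Twist2, and Hbegf to Sfn (0.282), Pard6b and Rhof. Tgfa was nearest to Bmp8a (0.123), with Slc35b3 also among its nearest genes, and Btc to Sema3c (0.178), Hspa12b and Prune2. Egfr was nearest to Sipa1l2 (0.136), Krt80 and Osbpl9, and Erbb2 to Lgr4, a receptor of R-spondins (0.160), Mgat3 and Ipmk. Pard6b was thus named for both Areg and Hbegf. Among the members themselves the nearest pairs were Epgn with Egfr (0.306) and Areg with Hbegf (0.351), and Ereg and Erbb2 were farthest apart (3.36). Genes that vary little lie near each other on this measure, and the libraries share their groups.

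Other ligands and receptors of the family were then set beside the members. Of Egf, Nrg1, Nrg2, Nrg3 and Nrg4, only Nrg1 (neuregulin 1, a ligand of ERBB3 and ERBB4) passed the filter in any comparison. Nrg1 rose with DSS from 0.263 ± 0.0670 to 4.06 ± 1.12 FPKM in VD mice (1.98 ± 0.16, limma with no filter, adjusted p = 6.47e-04) and from 0.397 ± 0.152 to 11.7 ± 7.11 in CS mice (2.99 ± 0.41, limma with no filter, adjusted p = 0.00129). With the filter it was tested only through the DSS libraries. On DSS its delivery difference was not called (1.15 ± 0.43, limma adjusted p = 0.105), nor was its interaction (1.01 ± 0.47, limma adjusted p = 0.161). Erbb3, a receptor for neuregulins that signals with ERBB2, fell with DSS in CS mice from 52.6 ± 2.82 to 9.69 ± 5.29 FPKM (-2.44 ± 0.27, limma adjusted p = 6.61e-05). In VD mice it was not called (-0.44 ± 0.26, limma adjusted p = 0.204), and the responses differed (-1.997 ± 0.40, limma interaction, adjusted p = 0.0115). On DSS Erbb3 was lower in CS mice (-1.67 ± 0.34, limma adjusted p = 0.0316). The ratio of Erbb2 to Erbb3 was 0.682 in CON_VD, 0.671 in CON_CS, 0.527 in DSS_VD and 0.839 in DSS_CS. Erbb4 was at a mean of 0.01 FPKM or less in every group.

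Genes that shed and mature the ligands moved in both directions. Of the 12 listed, 6 of 11 tested rose and 4 fell with DSS in VD mice, and 7 of 12 rose and 2 fell in CS mice. Over all tested genes 24.0% rose and 17.0% fell in VD mice, and 34.4% rose and 25.9% fell in CS mice. The list medians were 0.50 and 0.58, against 0.06 over all tested genes in both. Adam9, a membrane metalloprotease, rose from 17.5 ± 3.04 to 36.4 ± 5.85 FPKM in VD mice (1.01 ± 0.16) and from 20.1 ± 1.11 to 52.4 ± 5.45 in CS mice (1.34 ± 0.09). Adam8 in both delivery groups and Adam12 in CS mice passed the filter only through the DSS libraries, so their place in these counts is a description. Adam8 was higher with DSS by 1.91 ± 0.27 in VD mice, and Bace2 fell by 0.73 ± 0.11 (change -0.73). Rhbdf2, whose product iRhom2 carries ADAM17 to the cell surface, rose by 1.53 ± 0.11 in CS mice. On DSS 5 were higher and 1 lower in CS mice, where 7.89% of all tested genes were higher and 5.54% lower. The list median was 0.45 against 0.06 over all tested genes. The higher ones included Adam12 (3.33 ± 0.806 against 1.10 ± 0.283 FPKM, limma adjusted p = 0.0313), Adam15 (15.7 ± 1.06 against 11.1 ± 1.32, limma adjusted p = 0.0339) and Rhbdf1 (7.78 ± 0.205 against 5.05 ± 0.976, limma adjusted p = 0.0345). The rhomboid protease gene Rhbdl2 had a lower response to DSS in CS mice (-1.57, limma interaction, adjusted p = 0.0236), as did Adam10 (-0.58, limma interaction, adjusted p = 0.0141), while that of Adam12 was higher (1.02, limma interaction, adjusted p = 0.00807). Without the Pbsn libraries the interactions of Rhbdl2 (limma adjusted p = 0.0747), Adam10 (limma adjusted p = 0.0568) and Erbb3 (limma adjusted p = 0.0607) were not called.

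Of 19 feedback inhibitors of the receptor, 8 rose and 2 fell with DSS in VD mice, and 13 rose and 3 fell in CS mice. Among all tested genes 24.0% rose and 17.0% fell in VD mice, and 34.4% rose and 25.9% fell in CS mice. The list medians were 0.24 and 0.81. Spred3, one of those counted as risen, was tested only through the DSS libraries in both delivery groups. Socs3, a suppressor of cytokine signalling that also acts outside this pathway, rose to 87.4 ± 26.7 FPKM in DSS_VD, by 3.94 ± 0.32 (log2), and from 3.41 ± 1.33 to 132 ± 45.8 in CS mice (4.90 ± 0.28). Sh3kbp1, an adaptor in receptor uptake, rose by 1.84 ± 0.13 in VD mice, and Lrig3 fell there (-1.36 ± 0.13). Ptpn1, a phosphatase that acts on receptor kinases, rose by 1.97 ± 0.16 in CS mice. On DSS 3 were higher and 1 lower in CS mice, where 7.89% of all tested genes were higher and 5.54% lower. Among the higher ones were Spred3 (0.83, limma adjusted p = 0.0375) and Socs5 (0.66, limma adjusted p = 0.0313). The ubiquitin ligase gene Cblc was lower, at 7.76 ± 3.99 against 23.5 ± 8.88 FPKM (-1.52 ± 0.34, limma adjusted p = 0.0339).

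Of 27 genes of adaptors and the ERK cascade, 9 rose and 3 fell in VD mice and 13 rose and 5 fell in CS mice. Their share called was near that of all tested genes, 40.9% and 60.3%, and the list medians of 0.06 and 0.09 were near the 0.06 over all genes, so the counts show nothing about the list. Rasgrp1, among those counted as risen, was tested only through the DSS libraries. Stat3 rose by 1.10 ± 0.15 and 1.33 ± 0.09, and Map2k1, the gene of the ERK kinase MEK1, fell by 0.73 ± 0.11 in VD mice (change -0.73). On DSS, 3 were higher and 1 lower in CS mice, again a share near the 13.4% of all tested genes. Gab1, a docking protein of the receptor, was 4.64 ± 0.263 against 3.00 ± 0.368 FPKM (limma adjusted p = 0.0313). Eps8, a receptor substrate that acts on actin, was 11.1 ± 3.69 against 25.7 ± 6.10 FPKM (limma adjusted p = 0.0335). The adaptor gene Grb7, a close neighbour of Erbb2 on chromosome 11, had an interaction of -1.64 that was not called (limma adjusted p = 0.0550).

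Of 23 transcripts that ERK signalling is known to induce, 9 of 20 tested rose and 1 fell with DSS in VD mice, and 12 of 21 rose and 1 fell in CS mice. Over all tested genes 24.0% rose and 17.0% fell in VD mice, and 34.4% rose and 25.9% fell in CS mice, and the list medians were 0.36 and 0.70. Egr2 and Egr3, counted as risen in CS mice, were tested there only through the DSS libraries. Plaur, the urokinase receptor gene, rose by 3.08 ± 0.12 and 3.61 ± 0.17, and Ier3 by 2.66 ± 0.26 and 3.84 ± 0.13, while Etv4 fell in VD mice (-1.36 ± 0.23). On DSS 3 of 23 were called between deliveries, a share near the 13.4% of all tested genes. Ier3 was higher in CS mice, at 73.4 ± 4.87 against 34.7 ± 5.80 FPKM (limma adjusted p = 0.0218), and so was Phlda1 (36.8 ± 4.87 against 22.7 ± 5.33, limma adjusted p = 0.0429). Dusp6 was lower, at 27.6 ± 1.49 against 47.0 ± 12.4 FPKM (-0.71 ± 0.18, limma adjusted p = 0.0402). Many of these genes also respond to other signals.

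The delivery calls on DSS of the 12 pathway genes named above also depended on the libraries. Each was lost in 5 (Ier3) to 11 (Dusp6 and Phlda1) of 15 alternatives. All 12 were lost without DSS_VD replicate 1, where 0 genes in all were called, without DSS_CS replicate 3, where 1 was, and without the Pbsn libraries, where 6 were. With all libraries kept, all 12 were also lost with no filter and with a replicate block. The difference of Dusp6 ranged from -0.85 to -0.57 and that of Phlda1 from 0.54 to 0.80 over these alternatives, and Dusp6 was also not called in 1 fit on all 4 groups.

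**Figure D5:**
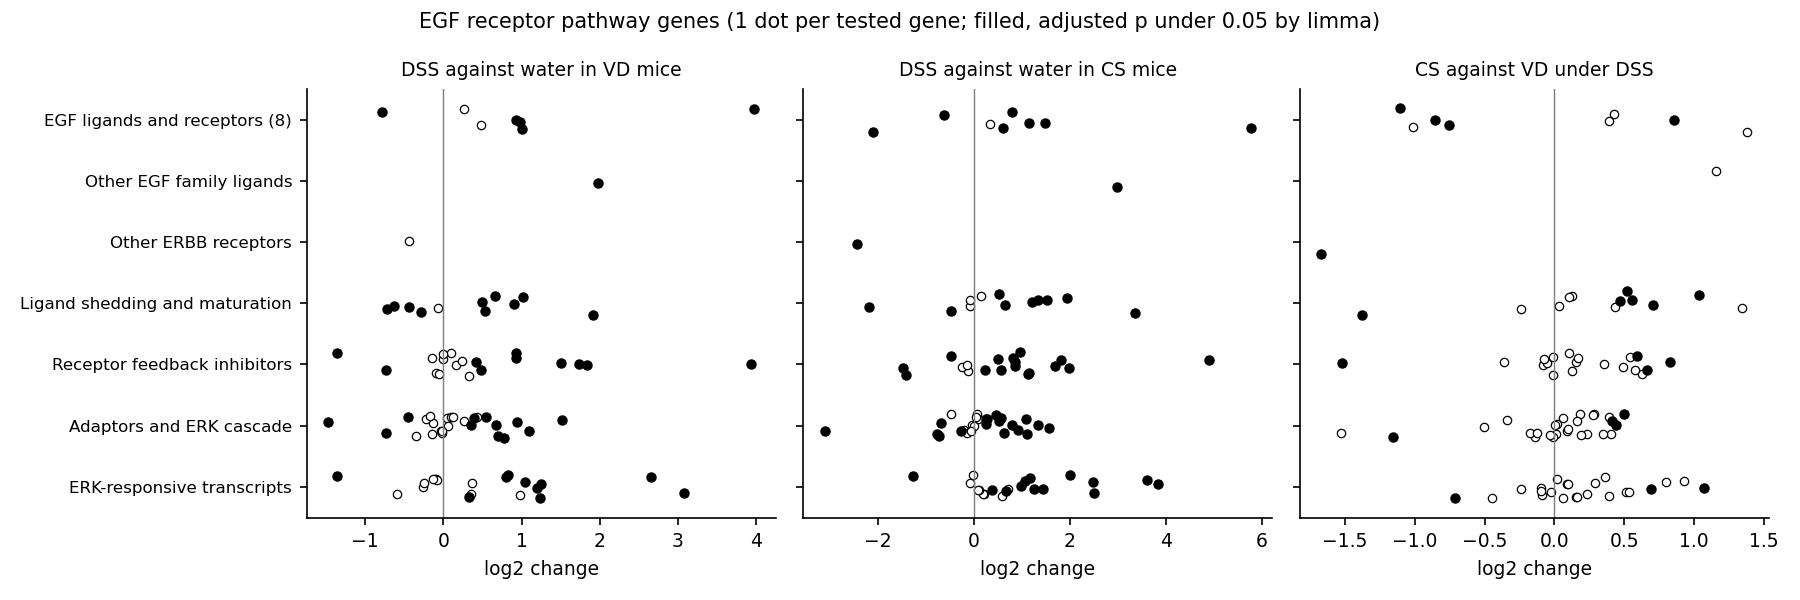
Log2 change of the 8 genes and of each tested gene of the pathway lists (rows) in 3 comparisons (panels, each with its own x axis). Filled dots have an adjusted p under 0.05. The lists spread to both sides of 0 in CS against VD under DSS, with medians of 0.45 for shedding genes and 0.16 for feedback inhibitors.

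On water 0 of the 74 tested genes of these lists were called between the delivery groups by limma, and 10 had an unadjusted p under 0.05. The smallest adjusted p there was that of Adam10 (31.3 ± 0.966 FPKM in CON_CS against 24.7 ± 2.62 in CON_VD, limma adjusted p = 0.119), and Fos was 30.1 ± 20.7 against 54.2 ± 8.64 FPKM (limma adjusted p = 0.233).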

How the data were processed

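Colon RNA of 16 libraries in 4 groups was analysed from 1 table of FPKM values that the authors deposited. The submitters' processing notes name cutadapt, FastQC and GRCm38, with the aligner, the quantifier and the annotation not given in the sources used here. No whole-read steps were found among low values, so depth is unknown and no counts were recovered. Symbols came from a table of gene names (39181 of 39328 identifiers matched), positions from GENCODE M21 and promoters from RefSeq, used for 6 of the 8 members.

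Tests used limma 3.58.1 (R 4.3.3) with a variance trend on values of log2(FPKM + 1), and a filter of 1 FPKM in 4 fitted libraries. Two-group comparisons were fitted on their 8 libraries and the interaction on 16, with two-sided p-values and Benjamini-Hochberg adjustment over all tested genes. This scale understates changes of low genes. Epgn, where under the filter, was compared with a two-sided exact permutation test (scipy 1.17.1). The fits were tested on simulated data.

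The members and gene lists were chosen with earlier results of these data known. All members are named, with the 3 pathway genes of smallest p per list and comparison (some are left out of the text) and the 3 genes most like each member, of which 1 is not reported here. Alternatives were the pseudocount, filter, scaling, variance trend, replicate block, a joint fit, leaving out each library, and leaving out 3 libraries with Pbsn of 10 FPKM or more.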

Additional observations from a re-analysis of the deposited data

Results flagged for a closer look

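In 3 of 32 groups of 4 libraries tested for a lone extreme library, the gap passed Dixon's 95% limit; chance alone flags about 1 in 20 groups. Epgn stood at 0.172 FPKM in CON_VD replicate 2, against 0 to 0.0248 in the other CON_VD libraries. Tgfa stood at 2.51 FPKM in DSS_CS replicate 1, against 1.26 to 1.37 in the others, and Erbb2 at 13.3 in the same library, against 5.62 to 6.38. That library also had the highest pan-epithelial score of its group (7.45).

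The response to DSS differed between the delivery groups for 4 of 8 members by the limma interaction test, against 13.2% of 15233 tested genes. Epgn reached the filter level there only in the DSS_CS libraries and DSS_VD replicate 4, so this count is a description. The response of CS mice minus that of VD mice was 1.79 for Ereg, 0.89 for Epgn, -0.88 for Tgfa and -1.32 for Erbb2, on the log2(FPKM + 1) scale. The call of Ereg was lost in 17 of 22 alternatives, and that of Epgn with a pseudocount of 0.1 and with no filter. Those of Ereg, Tgfa and Erbb2 were lost without the Pbsn libraries, and that of Erbb2 also with no filter. Epgn fell under the filter without the Pbsn libraries and was not tested there.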

How the results depend on the processing

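Of 631 values of members under alternatives, 538 kept their direction and side of the threshold, 81 lost a call, 8 gained one and 4 changed sign. For the other named genes these were 911, 162, 9 and 0 of 1082. The sign changes were of uncalled values: Epgn on water without CON_VD replicate 2 (-0.0484 to 0.00918 FPKM over libraries left out), the Areg interaction without CON_VD replicate 2 (-0.39 to 0.12) and without the Pbsn libraries (0.14), and the Btc interaction without DSS_CS replicate 2 (-0.0052 to 0.25). For CS against VD under DSS, 1923 genes were called, against 3 with no filter, 6 without the Pbsn libraries, 3855 in 1 fit on all 4 groups and 0 to 2054 with 1 library left out. Its 4 called members became 0 with no filter, 0 without the Pbsn libraries, 7 in 1 fit and 0 to 6 with 1 library left out. On water the 54 genes became 3 with no filter, 15 without the Pbsn library and 0 to 275 with 1 library left out. With median-of-ratios scaling they were 23 higher and 46 lower, against 24 and 30. For DSS in VD mice, 5 called members became 3 to 5 with 1 library left out. For DSS in CS mice, 8666 genes became 5217 and 7 members 4 without the Pbsn libraries. For the interaction, 2015 genes became 1042 with no filter, 637 without the Pbsn libraries and 1056 to 2515 with 1 library left out. Its 4 members became 2 with a pseudocount of 0.1, 1 with no filter, 0 without the Pbsn libraries and 3 to 4 with 1 library left out. No filter tests more genes and the Pbsn setting uses fewer samples; other causes were not tested.

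Replicate numbers did not pair the libraries (correlations of same-numbered deviations -0.278 to 0.128). With a replicate block, CS against VD called 2 genes and 0 members under DSS, and 7 genes under water, while Hbegf with DSS in CS mice gained a call (limma adjusted p = 0.0265). Median-of-ratios scaling moved the median of all genes for DSS in CS mice by -0.11 (log2), and no called member changed sign under it. Epgn could not be fitted in some settings where it fell under the filter, among them all those without the Pbsn libraries. With FPKM alone, no limit from depth can be given.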

Other observations

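Egf itself was low in every group, with means of 0.143 FPKM in CON_VD, 0.255 in CON_CS, 0.0930 in DSS_VD and 0.693 in DSS_CS. Its highest value, 2.31 FPKM, was in DSS_CS replicate 4, the library with the highest Pbsn, and the lowest value of that group was 0.0788. The other low family members were Nrg4, at means of 0.152 to 0.270 FPKM, Nrg2, at 0.132 to 0.27, and Nrg3, at 0.00741 to 0.0823, and none of them passed the filter.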
